A study of Mus musculus with 4 samples.

Results

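The genes described here are 3 tissue inhibitors of metalloproteinases (Timp1, Timp2 and Timp3) and 6 genes of the plasminogen activator system (Plat, Plau, Plaur, Serpine2, Serpinb2 and Plg) in IMS/N cells. They were taken as all non-control probes that carry one of these 9 symbols in the array files, which gave 17 probes out of 41174 and 9 genes out of 26683. IMS/N is a line of hepatic stellate cells, the collagen-producing pericytes of the liver, isolated from normal 129/Sv mice and immortalized with SV40. All 4 groups were this line, and each group was 1 sample on 1 array. The groups were untreated cells, cells with recombinant murine IL17A, cells with medium from cultured adipose tissue-derived stem cells (ADSC), and cells with IL17A and the medium together, called the combined array below. The ADSC came from inguinal subcutaneous fat of male C57BL/6J mice aged 8 to 10 weeks. Doses and times of both treatments were not given in the sources used here.

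TIMPs are secreted proteins that block matrix metalloproteinases and, to different degrees, the related ADAM and ADAMTS proteases. Plasminogen activators, encoded by Plat (tissue type) and Plau (urokinase type), cut plasminogen into plasmin, a protease that degrades fibrin and activates several metalloproteinases. Urokinase acts on the cell surface through its receptor Plaur, and serpins such as Serpine2 and Serpinb2 inhibit the activators. In the liver, hepatocytes make plasminogen, and activated stellate cells are a known source of TIMPs and of several proteins of this system.

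Levels are given as log2 of the quantile-normalized processed signal of the array, and differences are on the same log2 scale. A probe was taken as measured where the scanner software marked it as well above background, and each gene was represented by the probe with its highest mean. With 1 array a group no difference has a replicate check. A difference was counted where it reached 2-fold with the probe above background on the brighter array. Where the dimmer side was below background it was raised, if lower, to the array's lowest signal that cleared background, which gives the fold as a lower bound. From probes spotted several times on an array, the technical SD of such a difference was 0.311 for levels below 5, 0.138 from 5 to 7 and 0.0857 above 7. This SD holds no variation between cultures, labellings, arrays or slides. The gap between the IL17A differences with and without medium gave larger SDs of a difference at these levels, 0.431, 0.255 and 0.113. The untreated and IL17A arrays lay on one slide and both medium arrays on another, so medium and slide cannot be told apart. An additive limma fit over all 4 arrays, with 1 term for IL17A and 1 for the medium, treated the repeat of each difference as its only replicate. RNA came from whole cultures, so fewer cells of a kind and less RNA per cell cannot be told apart.

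Of 43379 non-control spots, 58.09% to 60.43% were well above background on each array and none was saturated. Among 13 stellate markers 9 were above background on at least 1 array, Acta2, Vim, Pdgfrb and Lhx2 among those above it on all 4, while Rgs5, Reln, Hand2 and Gfap were above it on none. Of 10 hepatocyte markers with a probe, Tat alone was above background, and Alb, Apoa1, Apob, Ttr, Fga, Fgb, Fgg, Ahsg and Cyp2e1 were above it on no array. The log2 summed level of the hepatocyte list was between 4.28 and 4.8. Macrophage and leukocyte markers above background numbered 4 of 8 on 3 arrays and 5 on the combined array, with summed levels of 9.11 untreated, 10.4 with IL17A, 9.08 with medium and 9.77 combined. Cd14 made up most of each sum, at 8.87, 10.28, 8.71 and 9.51, and every other marker of the list read 6.46 or lower. Adgre1, Clec4f and Itgam of that list were at background throughout. Endothelial markers above background numbered 2 of 5 on each array (summed 4.78 to 5.1), biliary or epithelial markers 2 of 4 and adipose markers 1 of 4. Summed biliary or epithelial markers were 9.46 untreated, 8.14 with IL17A, 9.43 with medium and 7.38 combined, and summed adipose markers 7.1, 8.4, 6.95 and 7.43, lower and higher respectively on the IL17A arrays than on their counterparts. Each of these sums was mostly 1 gene, Krt19 (9.38, 7.99, 9.36 and 7.14) and Fabp4 (7.06, 8.37, 6.89 and 7.39). Summed stellate markers were 16.6 untreated, 16.0 with IL17A, 16.3 with medium and 15.9 combined, so highest untreated and lowest combined. On the combined array against untreated, 2 of 9 tested were at least 2-fold lower, Pdgfrb (-1.03) and Col1a1 (-1.08). Lrat, above background on the combined array only, was 1 of 9 higher. Over all genes tested, 4.29% were lower and 3.38% higher. The part of these cell types in the differences below was not tested.

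Timp1 was higher with ADSC medium, with and without IL17A, and Timp2 was lower. Timp3 was higher with IL17A and differed by no more than 0.11 with the medium. Timp1 encodes a secreted inhibitor of many metalloproteinases that is long known as a product of activated stellate cells. Its log2 level was 14.48 untreated, 14.84 with IL17A, 15.61 with medium and 15.88 on the combined array. Both medium arrays were above both arrays without it. A second Timp1 probe read 11.67, 12.20, 13.03 and 13.41 in the same order of arrays, so the arrays ranked alike on both probes. The probes are shown because they lie in different stretches of the gene and gave the same ranking (chrX:20451675-20451733 for the first and chrX:20449905-20449964 for the second, mm9, 5′ to 3′, no letters marked).
Timp1, first probe: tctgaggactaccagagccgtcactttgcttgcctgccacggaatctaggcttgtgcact
Timp1, second probe: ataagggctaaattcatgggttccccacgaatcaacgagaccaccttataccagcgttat
The medium difference of Timp1 was 1.13 (2.18-fold) without IL17A and 1.04 (2.06-fold) with it, and 1.36 and 1.21 by the second probe. The IL17A difference was 0.36 without medium and 0.27 with it, short of the 2-fold rule on both probes. Median scaling brought the medium difference with IL17A to 0.86, below 2-fold, where the median of all genes was -0.17. It brought the IL17A difference with medium to 0.04, where that median was -0.24. Timp1 rose with the medium in the limma fit by 1.08 ± 0.052 (SE, Benjamini-Hochberg adjusted p = 0.00024) and with IL17A by 0.32 ± 0.052 (adjusted p = 0.018).

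Timp2 encodes an inhibitor that also takes part in the activation of pro-MMP2 at the cell surface by MMP14. Its 1 probe (chr11:118163146-118163205, mm9) read 16.24 untreated, 15.54 with IL17A, 15.52 with medium and 15.04 combined. The untreated array was the highest and the combined array the lowest. Each single treatment lay below untreated by less than 2-fold, at -0.70 for IL17A and -0.73 for medium. The combined array differed from untreated by -1.21, or 2.31-fold lower. With 75th percentile scaling both single differences were -0.53, and with median scaling both were -0.31. The combined difference was -1.07 and -1.06 under these scalings. Timp2 fell in both limma terms, where the IL17A term was -0.59 ± 0.065 (SE, adjusted p = 0.0049) and the medium term -0.62 ± 0.065 (adjusted p = 0.0023).

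Timp3 encodes the matrix-bound TIMP, which also inhibits ADAM17 and aggrecanases. Its 1 probe (chr10:85811696-85811755, mm9) read 11.40 untreated, 11.90 with IL17A, 11.30 with medium and 11.94 combined. Both IL17A arrays were above both arrays without IL17A, and no Timp3 difference reached 2-fold. IL17A differences were 0.49 without medium and 0.64 with it, and medium differences were -0.11 and 0.04, close to the technical SD. The IL17A term of the limma fit was 0.57 ± 0.063 (SE, adjusted p = 0.005), and the medium term was -0.03 ± 0.063 (adjusted p = 0.77).

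**Figure D1:**
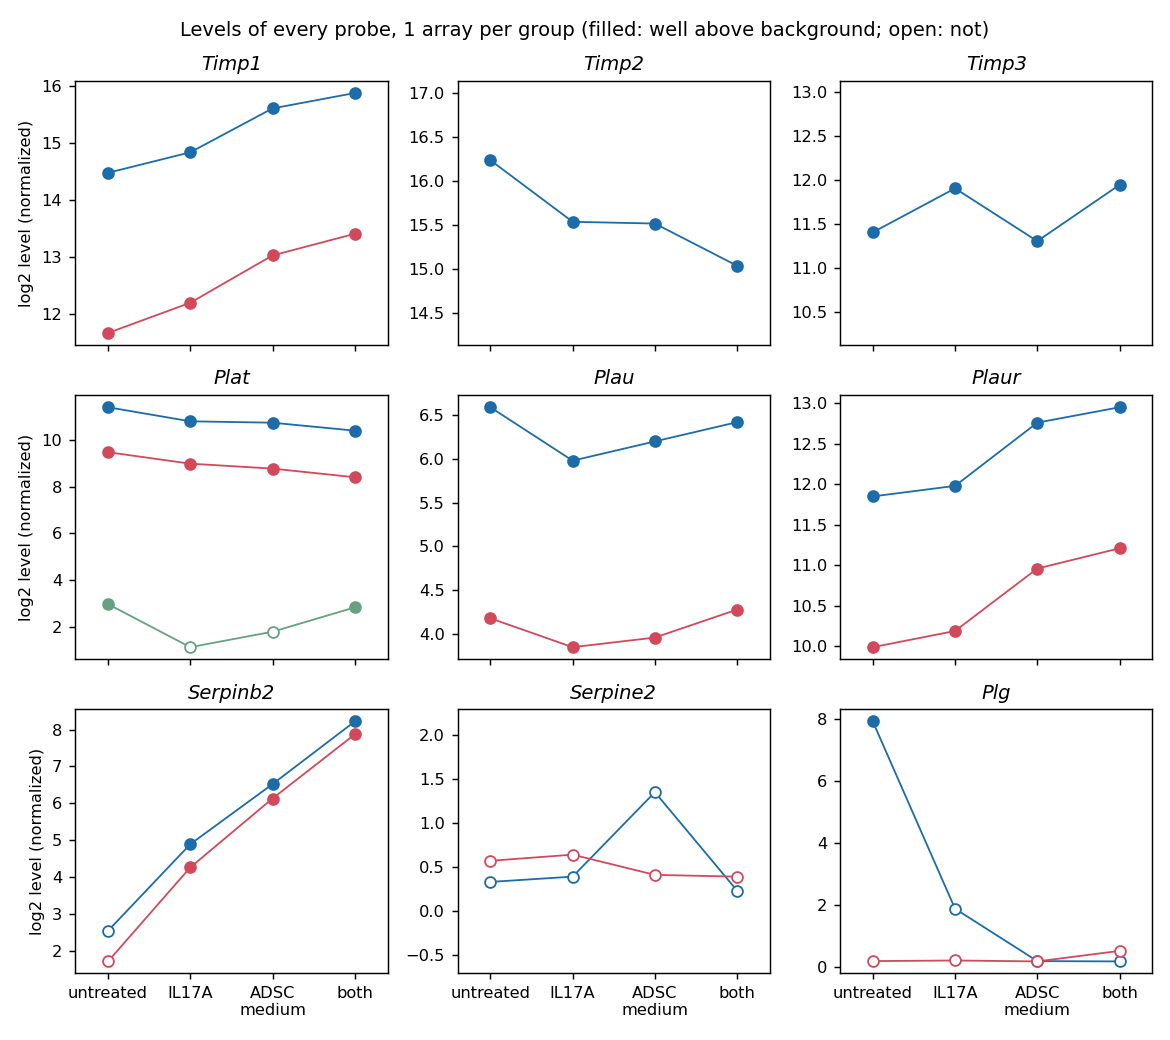
Log2 normalized level of each member on the 4 arrays, with 1 point per array and probe. Lines join the points of 1 probe and imply no order of treatments, blue marks the probe used for the gene, and open points are below background ("both" is the combined array). Serpinb2 spans the widest range among members measured on several arrays, from 2.54 to 8.22, and Plg is above background on the untreated array only.

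Of the activators, Plat was lower with each treatment by its brightest probe, and Plau differed in direction between settings. With the mean of its 3 probes, 1 of them near background, Plat was instead 0.11 higher for IL17A added to medium and 0.24 higher for medium added to IL17A. Plat encodes tissue-type plasminogen activator. Its brightest probe (chr8:23893092-23893152, mm9) read 11.39 untreated, 10.79 with IL17A, 10.73 with medium and 10.39 combined. Like Timp2, it was highest untreated and lowest on the combined array. A second probe (chr8:23892531-23892590) read 9.47, 8.98, 8.77 and 8.40, the same ranking. The remaining probe, which carries only an Ensembl transcript name in the files, was near background at 2.98 untreated and 2.84 combined and below background on the other arrays, at 1.14 with IL17A and 1.80 with medium. The difference between the combined and the untreated array was -1.0 (2.0-fold lower), which sits on the 2-fold line, and it was -1.06 by the second probe. That count ended with 75th percentile scaling, median scaling, normexp background correction and the mean of all probes. Plat also fell in the limma fit, by 0.47 on the log2 scale with IL17A (SE 0.079, adjusted p = 0.021) and by 0.53 with medium (SE 0.079, adjusted p = 0.0074).

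Plau encodes urokinase. Its brighter probe (chr14:21662242-21662301, mm9) read 6.59 untreated, 5.98 with IL17A, 6.20 with medium and 6.42 combined. The untreated array was the highest and the combined array came next, so adding IL17A went with a lower level without medium (-0.62) and a higher one with it (0.22). A second probe, whose 60 bases are given a genomic span of 367 bases (chr14:21659855-21660221), read 4.18, 3.85, 3.96 and 4.28. It gave -0.32 and 0.32 for the same differences, beside a technical SD of 0.311 at that level. The difference between the IL17A differences with and without medium was 0.83 by the first probe and 0.64 by the second. Neither reached 1, as 5.26% of 14480 genes above background on all 4 arrays did. No Plau difference reached 2-fold, and the limma terms were -0.20 ± 0.23 (SE, adjusted p = 0.76) for IL17A and 0.02 ± 0.23 (adjusted p = 0.96) for medium.

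Plaur, the urokinase receptor, was higher with ADSC medium and nearly alike with and without IL17A. Its brighter probe (chr7:25260569-25260628, mm9) read 11.85 untreated, 11.98 with IL17A, 12.76 with medium and 12.95 combined. Both medium arrays were above both others. The second probe (chr7:25259315-25259374) read 9.99, 10.19, 10.96 and 11.21, in the same ranking, and is shown as the probe by which the medium difference with IL17A passed 2-fold.
Plaur, second probe: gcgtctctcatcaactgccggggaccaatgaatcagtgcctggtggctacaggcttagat
The medium difference was 0.91 (1.88-fold) without IL17A and 0.97 (1.96-fold) with it, both short of 2-fold, and 0.97 and 1.01 by the second probe. It passed 2-fold without IL17A with median scaling (1.2) and normexp correction (1.1), and with IL17A under normexp correction (1.15). Against untreated the combined array was 1.1 higher (2.14-fold). The medium term of the limma fit was 0.94 ± 0.054 (SE, adjusted p = 0.00033), and the IL17A term was 0.16 ± 0.054 (adjusted p = 0.17).

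Serpinb2, which encodes plasminogen activator inhibitor 2, was higher with IL17A, higher with medium and highest with both. Its log2 level was 2.54 untreated, below background, 4.89 with IL17A, 6.52 with medium and 8.22 combined. A second probe read 1.71, below background, then 4.26, 6.13 and 7.87, so the order of the 4 arrays was the same. The probes overlap by 20 bases (chr1:109421496-109421555 for the first and chr1:109421456-109421515 for the second, mm9) and are therefore not independent. The second is shown with the shared bases in capitals.
Serpinb2, second probe: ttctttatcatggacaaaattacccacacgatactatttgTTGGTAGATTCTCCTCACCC
By the processed signal, Serpinb2 was, against untreated, at least 5.1-fold higher with IL17A, at least 15.8-fold with medium and at least 51.5-fold on the combined array. Between arrays that both measured it, IL17A added 1.71 to the level in medium (3.26-fold), and medium added 3.33 to the level with IL17A (10.1-fold). The second probe gave 3.35-fold and 12.2-fold for these. The limma fit used the untreated value although it was below background, and the IL17A term was 2.03 ± 0.24 (SE, adjusted p = 0.0062) and the medium term 3.66 ± 0.24 (adjusted p = 0.00056). These folds depended on the background correction. With normexp correction the differences against untreated were 0.40 for IL17A, no longer 2-fold, 1.29 for medium and 2.58 for the combined array. Medium added to IL17A then gave 2.18, IL17A added to medium 1.3, and the IL17A term was 0.85 (adjusted p = 0.12). The authors' deposited table of probe IDs that were higher with IL17A than without holds 861 IDs, or 2.09% of the array's probes, and 1 of the 17 probes is in it, the first Serpinb2 probe.

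Serpine2, which encodes protease nexin 1, an inhibitor of thrombin and of both activators, was below background on all 4 arrays by both its probes. Its brighter probe read 0.33 untreated, 0.39 with IL17A, 1.35 with medium and 0.23 combined, so no difference was measured. That probe's 60 bases are given a genomic span of 2618 bases (chr1:79793476-79796093, mm9).

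Plg, which encodes plasminogen, was above background on 1 array by 1 of its 2 probes. That probe read 7.91 untreated, and was below background at 1.87 with IL17A, 0.18 with medium and 0.17 combined. The processed signal behind these was 254.7 untreated against 3.17, 1.01 and 1.15. The other probe was below background on all 4 arrays at 0.18, 0.20, 0.17 and 0.51. The probes lie 18 bases apart (chr17:12612049-12612108 and chr17:12611971-12612030, mm9), and the first 30 bases of each are shown because neighbouring probes read so differently.
Plg, probe above background untreated: gagggcttagggtgtttggaaaaactgaca
Plg, probe at background: aaagggagatgaggaataactgactaggtg
By the first probe Plg was at least 35.9-fold lower with IL17A, at least 43.2-fold lower with medium and at least 46.5-fold lower on the combined array. With normexp correction the same log2 differences were -2.4, -2.54 and -2.47, and with the mean of both probes -1.30, -1.57 and -1.68, far smaller than these bounds. All of them rest on 1 spot of the untreated array, which carried no outlier flag and had a mean pixel signal of 303 with a pixel SD of 87.8. On that array 561 probes were above background there and nowhere else, 48 of them by 4 or more on the log2 scale. Of these, 3 stood out by 6.04 or more, this probe among them. The same 3 counts were 158, 5 and 0 with IL17A, 384, 14 and 2 with medium, and 590, 30 and 1 combined. Of the 48 untreated-only probes, 16 had another probe of the gene, and for 5 such a probe was above background untreated. On the untreated array 9 of the 10 hepatocyte markers were below background, Alb and the fibrinogen chains among them, and Tat read 3.43.

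**Figure D2:**
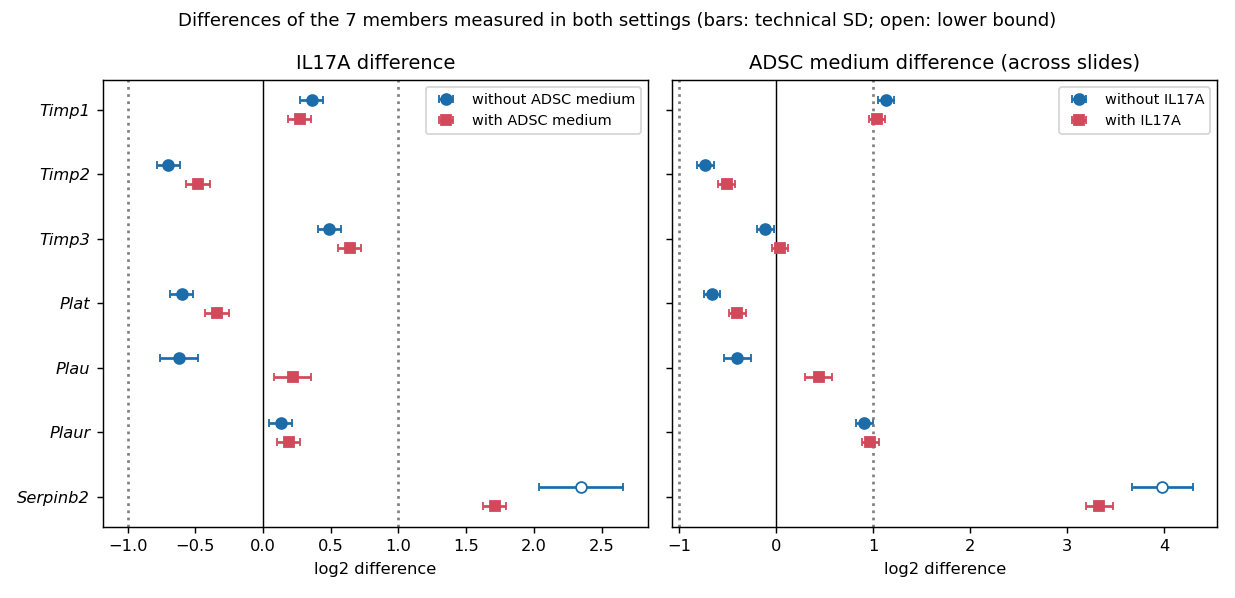
Log2 differences of the 7 members with a value in both settings, for IL17A at left (without and with ADSC medium) and for the medium at right (without and with IL17A, across slides). Bars are the technical SD for the level of the gene, from spots within an array, and hold no spread between arrays or slides. Open points are lower bounds against a side below background, and dotted lines mark 2-fold. Timp1 and Plaur lie near or past 1 for the medium in both settings, Plat and Timp2 lie below 0 in all 4 settings, and Plau changes side.

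Counted over the 9 genes, 8 were above background on at least 1 array and 6 on all 4. For IL17A against untreated, 1 of the 8 tested was at least 2-fold higher (Serpinb2) and 1 lower (Plg), where 2.17% and 2.29% of 15869 genes were. For IL17A added to medium, 1 of 7 was higher (Serpinb2) and none lower, beside 2.86% and 1.82% of 16068 genes. For medium against untreated, 2 of 8 were higher (Timp1 and Serpinb2) and 1 lower (Plg), beside 2.45% and 2.97% of 16102 genes. For medium added to IL17A, 2 of 7 were higher (Timp1 and Serpinb2) and none lower, beside 3.22% and 3.11% of 15876 genes. The combined array against untreated had 3 of 8 higher (Timp1, Plaur and Serpinb2) and 3 lower (Timp2, Plat and Plg), beside 3.38% and 4.29% of 16241 genes. Comparisons against untreated share that array, so their counts are not independent of each other. The members and the gene lists below were chosen with earlier results of these data known. Their counts, here and in the limma fit, are therefore no test against the shares of all genes. The Plg call in 3 of them disappears without its 1 bright probe.

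In the limma fit, 7 members could be fitted with 15472 genes in all. For IL17A, 3 members rose (Timp1, Timp3 and Serpinb2) and 2 fell (Timp2 and Plat), where 2.54% of all genes rose and 3.79% fell. For the medium, 3 rose (Timp1, Plaur and Serpinb2) and 2 fell (Timp2 and Plat), where 9.67% rose and 8.9% fell. Each gene has 1 residual degree of freedom in this fit, and the calls rest on the spread borrowed over genes of like level. Without the trend of spread over level, limma called 0 of all 15472 genes in either term after adjustment. The 0 of 7 members there is therefore no result about the members. In each term 5 members were below an unadjusted p of 0.05, beside 1852 genes for IL17A and 3340 for the medium. With no filter on dim genes limma also called 0 of all 26683 genes. There 6 and 5 of 9 members were below that unadjusted p, beside 2839 and 5515 genes. Median scaling left Serpinb2 alone in both terms. With 75th percentile scaling the IL17A term called Serpinb2 alone, at adjusted p of 0.055 for Timp3, 0.076 for Timp2, 0.085 for Plat and 0.19 for Timp1. Median scaling moved the median difference of all genes from 0.00 to 0.21 for IL17A against untreated, from 0.04 to 0.27 for medium against untreated, from -0.03 to -0.24 for IL17A added to medium and from 0.02 to -0.17 for medium added to IL17A. The values of members under median scaling move with these.

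**Figure D3:**
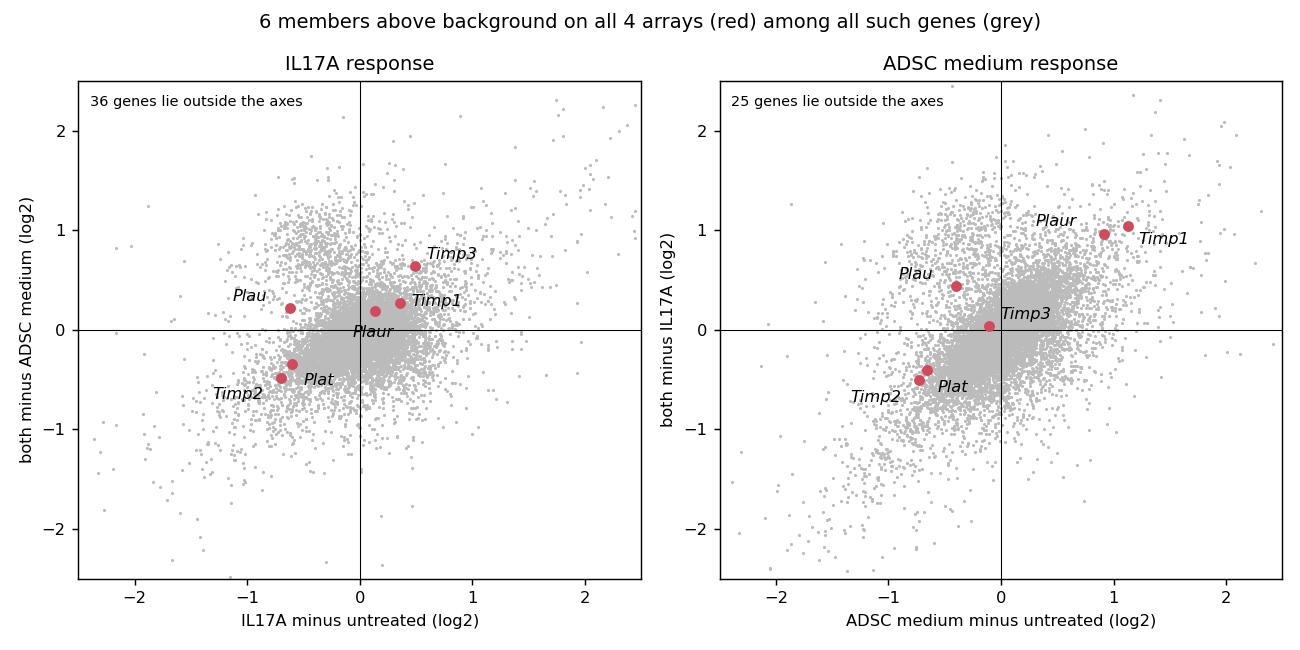
Log2 difference in the second setting (vertical) against the first (horizontal) for genes above background on all 4 arrays, in grey, with the 6 such members in red. The left panel shows the IL17A difference with and without ADSC medium, and the right panel the medium difference with and without IL17A. The axes leave out 36 and 25 genes that lie beyond them. Timp1 and Plaur sit at the upper right for the medium, Timp2 and Plat at the lower left for both treatments, and Plau at the upper left in both panels.

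**Figure D4:**
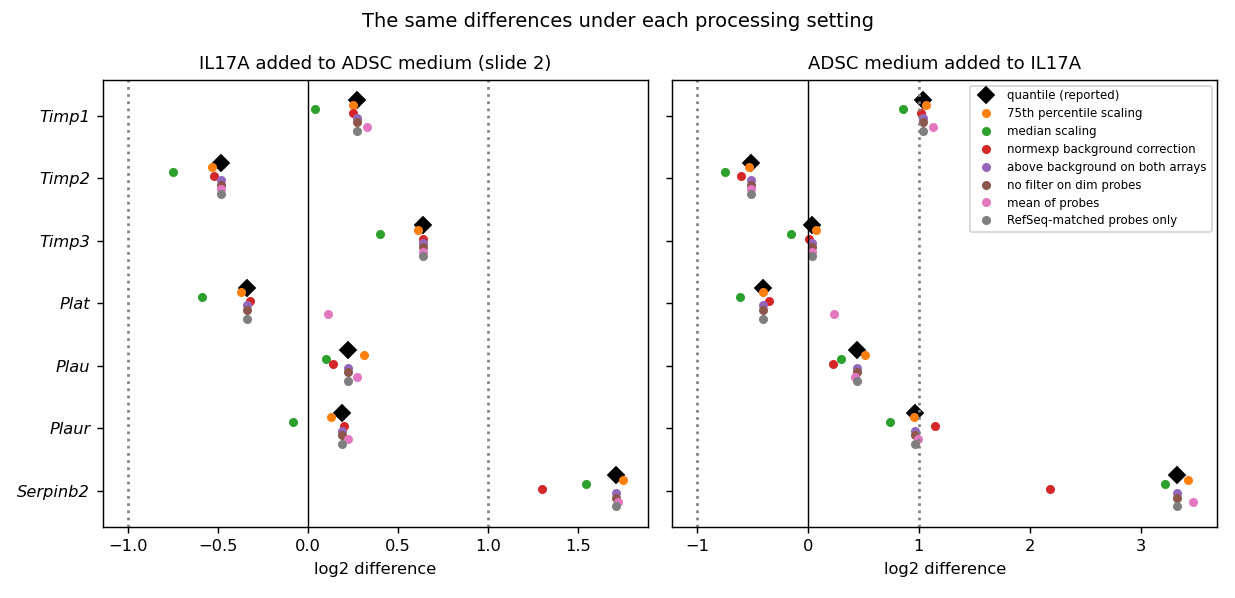
Log2 differences of the members under each processing setting, for the 7 members with a value in both settings. The left panel shows IL17A added to ADSC medium and the right panel the medium added to IL17A, black diamonds are the values in the text, and dotted lines mark 2-fold. Serpinb2 lies above 0 and Timp2 below 0 under every setting shown. Timp1 also lies above 0, but with median scaling at 0.04 at left, within the technical SD of 0.0857, and at 0.86 at right. Plat lies above 0 with the mean of probes, and Plaur falls to -0.08 at left with median scaling.

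The members that moved in parallel can be compared through the 4 levels after each gene's mean was subtracted, where a small distance means a like profile. Among 12160 genes above background on all 4 arrays, with clone, accession and predicted names left out, the nearest to Timp1 were Creb5 (distance 0.13), Hectd2 (0.159) and Armcx4 (0.174). The nearest to Plaur were Creb5 (0.0944), Esx1 (0.095) and Gsta1 (0.111). Timp2 was nearest to Msln (0.0859), Fam110b (0.1) and Spon2 (0.114), and Plat to Zfp607b (0.0443), Irs1 (0.0551) and Cxcl12 (0.0745). Timp1 and Plaur were each within the nearest 50 genes of the other, and so were Timp2 and Plat. Profiles of 4 arrays leave many genes close to each other.

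The promoters of the 3 members that were higher on the combined array are shown for the letters they hold, since those genes were higher together. RefSeq windows of 250 bases upstream of the start (GRCm38.p6) were given for 6 members, 7 windows in all because Serpinb2 has 2 starts. Both strands were searched for TGANTCA (AP-1), GGG and TTTCC with any 2 bases between them (NF-kB), GCGNGGGCG (Egr) and TTGCNNAA (C/EBP), of which the AP-1 match is in capitals. The windows shown are chr1:107511173-107511422 for the first Serpinb2 start, chr7:24462233-24462482 for Plaur and chrX:20869916-20870165 for Timp1, all on the plus strand.
Serpinb2: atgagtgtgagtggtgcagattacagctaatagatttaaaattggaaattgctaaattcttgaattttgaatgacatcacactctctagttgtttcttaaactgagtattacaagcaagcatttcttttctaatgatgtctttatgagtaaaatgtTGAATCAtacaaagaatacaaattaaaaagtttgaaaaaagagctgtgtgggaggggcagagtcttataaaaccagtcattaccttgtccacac
Plaur: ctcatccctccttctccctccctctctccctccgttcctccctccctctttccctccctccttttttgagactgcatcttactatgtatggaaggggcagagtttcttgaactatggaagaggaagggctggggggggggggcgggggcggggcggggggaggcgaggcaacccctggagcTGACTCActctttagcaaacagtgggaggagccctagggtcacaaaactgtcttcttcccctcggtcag
Timp1: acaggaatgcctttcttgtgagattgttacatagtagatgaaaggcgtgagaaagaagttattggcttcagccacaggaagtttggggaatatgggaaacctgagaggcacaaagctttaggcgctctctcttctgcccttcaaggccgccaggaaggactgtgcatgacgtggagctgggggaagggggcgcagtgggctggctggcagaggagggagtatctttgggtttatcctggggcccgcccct
The AP-1 letters stood 69 to 63 bases upstream of the start in Plaur and 94 to 88 bases upstream of the first start in Serpinb2. From the second Serpinb2 start (window chr1:107511260-107511509) the same letters lie 181 to 175 bases upstream. The C/EBP match differs between these Serpinb2 windows, at 202 to 195 bases in the first and 19 to 12 in the second. Of 32851 mouse windows, 6.75% hold the AP-1 letters. The AP-1 letters are not in the windows of Timp1, Timp2, Timp3 and Serpine2. The C/EBP letters were in the Plaur and Serpinb2 windows (9.56% of all windows), the Egr letters in those of Plaur and Serpine2 (4.7%), and the NF-kB letters in none of the 7 windows (1.41%). A match describes letters and shows no binding.

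Around the members, 30 partners of the plasmin pathway had a probe, and Vtn, A2m, Klkb1, F12 and Tfpi2 were above background on no array. For IL17A against untreated, 1 of 23 was at least 2-fold higher, Serping1 (1.14), the C1 inhibitor, and 1 was lower, Serpinb8 (-1.46). Over all genes tested, 2.17% were higher and 2.29% lower. For medium against untreated, 1 of 24 was higher, Vldlr (1.02), a clearance receptor for activator and inhibitor complexes, beside 2.45% of all genes tested. None of 23 differed by 2-fold for IL17A added to medium, and for medium added to IL17A 1 of 22 did, Serpinb8 (1.09). Over all genes tested, 2.86% were higher and 1.82% lower in the former, and 3.22% and 3.11% in the latter. On the combined array against untreated 1 of 23 was lower, F2rl1, which was below background on the combined array, beside 4.29% of all genes tested. The counts of partners are small and near these shares, so they are no result about the list. The median difference of the measured partners was between -0.11 and -0.05 over the 5 comparisons, and that of all genes measured on both arrays between -0.03 and 0.04. Among 22 partners in the limma fit, IL17A had 1 call higher, Thbd (0.67), the thrombin receptor thrombomodulin, and 1 lower, Anxa2 (-0.36), a cell-surface binding site for Plat and plasminogen. For the medium, Anxa2 and Vldlr (0.96) rose and F3 (-0.67), tissue factor, and Serpinb9 (-0.81) fell. Over all genes fitted, 2.54% rose and 3.79% fell with IL17A, and 9.67% rose and 8.9% fell with the medium. Anxa2 read 14.02 untreated, 13.64 with IL17A, 14.23 with medium and 13.89 combined.

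Of 22 proteases that TIMPs control, Mmp3 (stromelysin 1, which is itself activated by plasmin) had the largest difference in 4 of the 5 comparisons. It read 6.51 untreated, 8.27 with IL17A, 3.67 with medium and 5.83 combined, so it was high with IL17A and low with medium, while Timp1 was highest on the medium arrays. For IL17A against untreated 3 of 18 tested were at least 2-fold higher, Mmp3 (1.76), Mmp19 (1.37) and the aggrecanase Adamts4 (1.18), and none was lower. The shares over all genes tested were 2.17% higher and 2.29% lower. For medium against untreated 3 of 17 were lower, Mmp3 (-2.84), Adamts5 (-1.57) and Adamts1 (-1.26), and 1 was higher, Adam12 (1.23). Here the shares were 2.97% lower and 2.45% higher. For IL17A added to medium Mmp3 alone of 19 was higher (2.16), and for medium added to IL17A 3 of 19 were lower, Mmp3 (-2.44), Mmp19 (-1.22) and Adamts5 (-1.17). Of all genes tested, 2.86% were higher in the former and 3.11% lower in the latter. On the combined array against untreated Adamts5 alone of 19 was lower (-1.43), beside 4.29% of all genes tested. The median difference of the measured proteases was between -0.35 (medium added to IL17A) and -0.03 (IL17A added to medium). Of 18 of these proteases in the limma fit, 3 rose and 3 fell with IL17A, and 2 rose and 5 fell with the medium. Of all genes fitted, 2.54% rose and 3.79% fell with IL17A, and 9.67% rose and 8.9% fell with the medium. Mmp14, the partner of Timp2 in pro-MMP2 activation, read 12.78, 12.34, 12.27 and 11.98 in the same order of arrays as above and fell in both limma terms, by 0.36 with IL17A and by 0.43 with medium on the log2 scale. None of the 6 TIMP and plasmin receptors or scaffolds (Cd63, Itgb1, Itgav, Itga3, Kdr and Cd82) differed by 2-fold in any of the 5 comparisons. At most 4.29% of all genes did so in one direction, so none among 6 is no result about them. In the limma fit Cd82 and Itga3 fell with IL17A, and Itga3 fell and Itgb1 rose with the medium.

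The authors' deposited table of probe IDs that were higher with IL17A and lower with IL17A plus ADSC medium holds 1193 IDs, or 2.9% of the array's probes, and 1 of the 17 probes is in it, that of Timp2. Its levels given above were 15.54 with IL17A, 16.24 untreated and 15.04 combined, so the level with IL17A was above the combined array and below the untreated one. Which threshold made the table was not given in the sources used here.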

How the data were processed

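The 4 Cy3-labelled RNA samples were hybridised to 1-colour Agilent mouse arrays and read with Feature Extraction 12.1.1.1, per the file headers, which also give mm9 as the build of the probe positions. The intensity used is the deposited processed signal, from which background was subtracted and spatial trends removed per the file headers, with no scaling between arrays. Mean and background intensities from the deposited files entered 1 alternative. Flags in the deposited files are score columns of 0 or 1 (above background, saturated, outlier). Quantile normalization is named as the authors' step in the series' design text, and the submitters' processing notes name R 3.5.1. The authors' deposited lists hold probe IDs.

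Here quantile normalization was applied to log2 processed signals, without control spots and outlier spots (126, 91, 107 and 100), and repeated spots were averaged. Names came from a RefSeq accession (GRCm38.p6 table) for 28696 of 41174 probes, from a current symbol for 5761 and from an older one for 163, while 6554 kept the name in the file. For the fit, limma 3.58.1 (R 4.3.3) ran lmFit, then eBayes with a variance trend, over genes that cleared background on 2 or more arrays, and p-values were adjusted by Benjamini-Hochberg over all of them at 0.05. Python 3.11.15 with pandas 2.3.3 and NumPy 2.4.6 did the rest. The number of arrays limits the precision. Both procedures were also run on simulated data that held an additive IL17A effect only. Its noise was set by level from these data and was independent between arrays. With no slide effect and no medium term, that run cannot show how the procedures do on these slides.

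Every member was named with every probe. For each member above background on all 4 arrays with a range of 1 or more, the 3 genes nearest in mean-centred level were named, and from each gene list up to 4 called genes. The members and lists were chosen with earlier results of these data known. The spread behind the p-values is the gap between a gene's difference in one setting and in the other, moderated over genes. A real dependence of one treatment on the other counts in it as spread. A shift shared by both arrays of a slide goes into the medium term and not into this spread. Whether the samples came from separate cultures is not stated in the labels, so the spread may be technical. Probe positions were not set against exons, since no mm9 annotation was used here. Alternatives were 75th percentile and median scaling, normexp correction (offset 50), stricter or absent background filters, the mean of probes, RefSeq-matched probes, 1.5-fold and 4-fold thresholds, and eBayes without a trend.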

Additional observations from a re-analysis of the deposited data

Results flagged for a closer look

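The IL17A difference of Plau ran in opposite directions without and with ADSC medium, at -0.62 and 0.22, a gap of 0.83 on the log2 scale. The medium difference of Plau did so too, at -0.40 without and 0.44 with IL17A, which is the same gap of 0.83 by construction. The second Plau probe gave a gap of 0.64. The 90th percentile of the size of this gap over 14480 genes above background on all 4 arrays was 0.677. The medium difference of Timp3 was -0.11 without and 0.04 with IL17A, a gap of 0.15. With 1 array a group none of these gaps was tested.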

How the results depend on the processing

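No paired analysis was possible because each group holds 1 array. No array was left out in turn for the same reason. The fit with slide as a block was not run, since slide equals medium. No member's difference past 2-fold and no fitted call turned direction under any setting. Single differences moved by no more than the technical SD in 225 results and by more in 56, and single fitted terms kept their side of the threshold in 73 and lost it in 37. The cause of the changes was not tested beyond what each setting does by construction.

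Counts of members at 2-fold changed as follows. For IL17A against untreated the 1 higher became 0 with normexp correction and with background cleared on both arrays. The 1 lower became 0 with that filter and 0 without the bright Plg probe, an alternative chosen after seeing the data, and 4 at 1.5-fold. For IL17A added to medium, higher became 2 at 1.5-fold and 0 at 4-fold, and without a filter lower became 1 (Serpine2). For medium against untreated, higher became 3 with median scaling and normexp (Plaur added), without a filter (Serpine2 added) and at 1.5-fold (Plaur added), 1 with background cleared on both arrays and 1 at 4-fold, and lower became 0 with that filter, 0 without the Plg probe and 3 at 1.5-fold. For medium added to IL17A, higher became 3 with normexp and at 1.5-fold (Plaur added), 1 with median scaling and 1 at 4-fold, and without a filter lower became 1 (Plg). For the combined array against untreated, higher became 2 with background cleared on both arrays, lower became 2 in 6 settings (Plat lost with 75th percentile scaling, median scaling, normexp and the mean of probes, Plg with background cleared on both arrays and without its bright probe), and 4-fold left 1 higher and 1 lower. The count of gaps between IL17A differences reaching 1 went from 0 to 1 with 75th percentile scaling (Plau) and to 1 with the mean of probes (Plat).

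In the limma fit, the 3 members that rose with IL17A became 1 with 75th percentile scaling, median scaling or normexp, and 0 without a filter or without a trend. The 2 that fell became 0 with 75th percentile scaling, median scaling, no filter or no trend, and 1 with normexp or the mean of probes. For the medium, the 3 that rose became 1 with median scaling and 0 without a filter or trend, and the 2 that fell became 0 with median scaling, no filter or no trend and 1 with the mean of probes. Without a filter or without a trend, no gene at all was called in either term. Without a filter, 6 of 9 members for IL17A and 5 for the medium had an unadjusted p below 0.05, beside 2839 and 5515 of 26683 genes. Adjusted p-values over all settings ranged from 6.5e-05 to 0.36 for the IL17A term of Serpinb2, from 6.4e-06 to 0.53 for the medium term of Timp1, and from 2.2e-05 to 0.68 for that of Plaur, and reached 1.0 for Timp2 and Plat in both terms. The 6.5e-05, 0.53 and 0.68 came with median scaling, where a gene's own spread had no weight in limma. Total degrees of freedom were 15472 there and 6.7 in the reported fit. Over all genes, the IL17A term called 393 higher and 587 lower, whereas 75th percentile scaling gave 99 and 66, median scaling 109 and 56, and RefSeq-matched probes 539 and 884. For IL17A against untreated, 345 genes were higher and 363 lower at 2-fold, whereas 75th percentile scaling gave 263 and 533 and normexp 97 and 66. With 75th percentile scaling the split of higher and lower genes was 723 and 171 for IL17A added to medium (460 and 292 as reported), 269 and 655 for medium against untreated (394 and 479) and 775 and 372 for medium added to IL17A (511 and 494). Normexp called at most 128 genes higher and 177 lower in any comparison.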
